A study of Mus musculus with 12 samples.

Results

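The rows of the mouse T cell receptor beta locus were followed through RNA-seq and ribosome footprinting of thymocytes. Members were all rows whose symbol begins with Trbv, Trbd, Trbj or Trbc, found by Ensembl ID in both count tables, with at least 10 reads summed over the 12 libraries. This gave 43 members among 53 rows of the locus and 55335 gene rows in all: 25 of 35 variable (Trbv) rows, both diversity (Trbd) rows, 7 joining rows of the first cluster (Trbj1), 7 of the second (Trbj2) and both constant genes (Trbc). The 10 rows left out are V pseudogenes in RefSeq and held 0 to 5 reads. Just outside the minimum lay Trbv25 with 3 reads and Trbv6 with 5, and just inside it Trbv22 with 28 and Trbv12-3 with 60, which are V pseudogenes as well. RefSeq also lists Trbv29 and Trbj2-6 as pseudogenes, although they held 9333 and 2925 reads.

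Thymocytes came from 6-week-old mice kept free of specified pathogens, of the genotypes labelled WT (wild type) and miR-181a/b-1 KO (here KO), in which a pair of microRNA genes is deleted. Each genotype had 3 RNA-seq and 3 footprint libraries, and all cells were put into cycloheximide, which stalls ribosomes, after passing a strainer. The labels name neither the strain nor the sex, nor whether the deletion is limited to 1 cell type, nor whether an RNA-seq and a footprint library of equal number share a mouse, and they do not say that replicates came from separate mice. Replicate error is therefore the spread between these libraries, which may be technical.

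The beta chain pairs with the alpha chain to form the receptor of most T cells. Its gene is assembled in immature thymocytes: recombination joins a D to a J segment and then a V segment to that pair, and the joined exon is spliced to the constant exons of Trbc1 or Trbc2. J segments that lie between the chosen J and the constant gene stay in the transcribed intron and are removed by splicing, whereas segments upstream of the chosen J are lost from the chromosome. Each J cluster follows its own D segment and precedes its own constant gene. Most V segments lie far upstream, and Trbv31 lies downstream of Trbc2 in the opposite orientation. A developing cell first tests its beta chain in the pre-T cell receptor, paired with the invariant chain encoded by Ptcra. Footprinting sequences the mRNA fragments that ribosomes protect from nuclease, so introns should contribute little to it. In bulk libraries, fewer cells using a segment and less of its RNA per cell cannot be told apart.

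Reads in genes numbered 4479182 to 8180286 per RNA-seq library, of which 7500 to 14686 fell in the members. Per footprint library they numbered 4069968 to 17859770, with 16894 to 66475 in the members, the lowest in KO replicate 3. Of the counted RNA-seq reads, 50.9% to 57.1% lay in no annotated feature, against 5.32% to 6.39% of footprints. Mir181a-1 checked the footprint labels, with 166, 133 and 145 RPM (reads relative to the reads in genes) in WT and 0.460, 1.04 and 0.983 in KO, but not those of RNA-seq, where it had 0.987 to 3.99 and 2.23 to 5.01. RNA-seq groups are therefore given as labelled. In both assays, a WT library and the KO library of equal number deviated from their group means in mirrored ways across genes (r of -0.96 to -0.92 in RNA-seq, -0.96 to -0.94 in footprints). Differently numbered pairs gave 0.224 to 0.663 and 0.324 to 0.619. These values run over genes, not over independent samples. The spread within a group may therefore not measure the spread between mice, and each call of a beta locus row between genotypes is given also from a fit with a replicate block. Such a block removes what libraries of equal number share, and mirrored deviations are not shared. It does not correct for the mirroring and leaves fewer degrees of freedom, so calls lost with it may reflect less power. The summed level of the thymocyte markers, among them Cd4, Cd8a, Rag1 and Ptcra, was 13370 to 15010 CPM in WT and 12930 to 14190 CPM in KO RNA-seq, as the cell type label says. CPM here are relative to a library's total after TMM scaling within its assay.

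The 2 assays divided the locus differently. V rows held 21.7% to 23.7% of the members' reads in the 3 WT RNA-seq libraries and 55.6% to 57.5% in the 3 WT footprint libraries. Constant genes held 55.6% to 59.9% of RNA-seq reads and 33.3% to 35.7% of footprints. J rows held 18.2% to 20.6% and 8.21% to 8.63%. The assays did not overlap in any of these 3 shares, and KO libraries showed the same order: V rows 23.0% to 24.9% against 55.2% to 57.3%, constant genes 55.6% to 59.8% against 34.9% to 37.4%, J rows 17.2% to 19.7% against 6.95% to 7.32%. The V rows summed to 390 ± 5.40 RPM in WT RNA-seq and 2064 ± 40.5 RPM in WT footprints, and the constant genes to 1008 ± 74.7 RPM and 1259 ± 59.4 RPM (SD, n = 3 each).

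The ratio of footprints to RNA was then fitted for each row, which needs no gene length since both assays count over the same row. A log2 ratio of 0 marks the average gene under TMM scaling over the 6 libraries of a genotype, and a row was called at an edgeR FDR under 0.05. A low-count filter kept rows with enough reads in at least 3 of the 6 libraries, which 1 assay alone can supply. A row low in only 1 assay was therefore tested, and such a row has an extreme ratio. In WT, 37 of 40 tested members were called, 31 with a higher and 6 with a lower ratio. Among all 14385 tested genes 85.3% were called, 41.9% higher and 43.3% lower, so the called share of members is near the background and the share called higher, 77.5%, is above it. Trbv12-3, Trbv21 and Trbv22 had too few reads in both assays to be tested. Without the filter, 39 of 43 members were called in WT, 32 higher and 7 lower. In that setting 15094 of all 31119 genes were called, 7487 higher and 7607 lower. KO libraries again gave 37 of 40 called, 31 higher and 6 lower, where 83.7% of all genes were called, 41.7% higher and 42.0% lower. They may not be an independent repeat, since KO and WT libraries of equal number deviated in mirrored ways. The ratios of the 40 members in WT and KO correlated at r = 0.98 and had the same sign for 39, a description over rows of 1 locus that share libraries. RNA-seq also held the larger share of reads in no annotated feature, given above, and its part in these ratios was not tested.

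All 22 tested V rows had more footprints than RNA relative to the average gene. Their median log2 ratio in WT was 2.70, against -0.02 over all tested genes, and they ran from 1.71 for Trbv24 to 5.17 for Trbv30. Even Trbv24 lay above 88.0% of tested genes in WT, though above only 78.7% in KO, where its log2 ratio was 1.17. Trbv15, with the third highest ratio in the locus, had 18.4, 14.9 and 20.5 CPM in WT RNA-seq and 186, 185 and 183 CPM in WT footprints, which is a log2 ratio of 3.65 (SE 0.11, edgeR FDR 8.28e-13). The paralogs Trbv13-1, Trbv13-2 and Trbv13-3 had log2 ratios of 3.26, 2.68 and 2.50, and Trbv12-1 and Trbv12-2 had 2.56 and 1.77. Reads that fit several copies were set apart in the counting, 13.1% to 20.5% of RNA-seq and 17.7% to 18.6% of footprint reads, so values of such close copies are uncertain. Trbv31, despite its inverted place behind Trbc2, had a log2 ratio of 2.77 in WT and 3.16 in KO, between those of Trbv24 and Trbv30.

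Use of the V rows, as shares of V reads not scaled by length, differed between the assays in order. In WT RNA-seq the 5 rows with most reads were Trbv12-2, Trbv13-2, Trbv1, Trbv12-1 and Trbv19, with 44.8% of V reads together. In WT footprints they were Trbv13-2, Trbv13-1, Trbv15, Trbv19 and Trbv1, with 45.5%. Trbv12-2 went from 10.7% ± 0.25 of V reads in RNA-seq to 5.53% ± 0.26 in footprints, and Trbv15 from 4.70% ± 0.65 to 8.97% ± 0.09 (SD, n = 3). Both differences between assays exceeded the spread between libraries.

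Trbv30 rests on very few RNA reads. It had 2, 4 and 0 reads in WT RNA-seq and 153, 151 and 102 in WT footprints. Its log2 ratio was 5.17 (SE 0.34) in WT and 4.19 (SE 0.34) in KO, the highest in the locus in both. Trbv30 passed the low-count filter through its footprints alone, so its high ratio was in part set by that filter. The pseudogenes Trbv12-3 and Trbv22 did not share the excess of footprints by count: Trbv12-3 had 40 RNA reads and 20 footprints over all libraries, and Trbv22 had 15 and 13, although footprint libraries as a group were deeper. Trbv29, listed as a pseudogene too, had a log2 ratio of 3.00 in WT and 3.01 in KO, within the range of the other V rows.

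**Figure D1:**
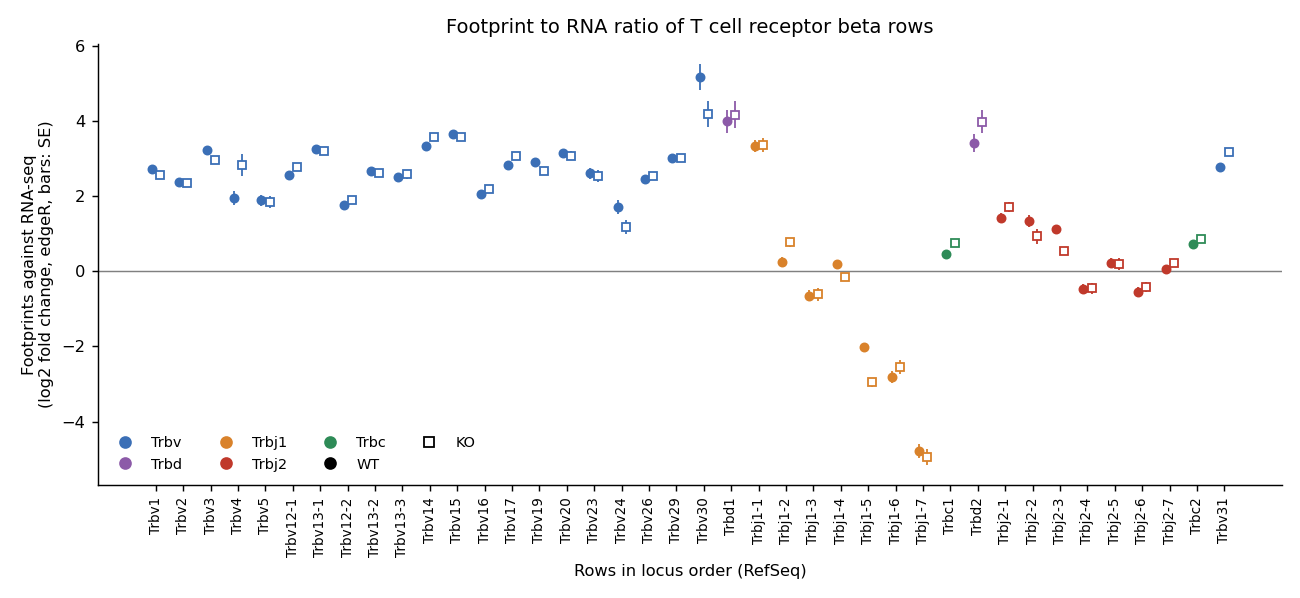
Log2 ratio of footprints to RNA-seq (y axis, edgeR, bars are SE) for each of the 40 tested members in locus order (x axis), with filled circles for WT and open squares for KO, 3 libraries of each assay. All 22 V rows lie between 1.17 and 5.17, the Trbj1 rows descend from 3.33 to -4.78 in WT, and the constant genes lie between 0.45 and 0.86.

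Both D rows also had more footprints than RNA. Trbd2 had 2.06, 1.11 and 2.47 CPM in WT RNA-seq and 17.1, 12.9 and 20.1 CPM in WT footprints, a log2 ratio of 3.41 (SE 0.25, edgeR FDR 5.90e-09). Trbd1 had a log2 ratio of 3.98 (SE 0.31, edgeR FDR 1.23e-08), though from only 3 RNA reads in each WT library. It passed the low-count filter through its footprints alone. In KO the ratios were 3.98 for Trbd2 and 4.16 for Trbd1. Both rows were called higher in both genotypes. In KO, Trbd2 had only 6, 8 and 5 RNA reads and would not have passed the filter without its footprints. Its KO ratio was therefore in part set by that filter.

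Within the J clusters, the ratios were ordered by position. In the first cluster the log2 ratios in WT were 3.33 for Trbj1-1, 0.26 for Trbj1-2, -0.65 for Trbj1-3, 0.18 for Trbj1-4, -2.01 for Trbj1-5, -2.82 for Trbj1-6 and -4.78 for Trbj1-7, from the segment nearest Trbd1 to the one nearest Trbc1. All but Trbj1-4 (edgeR FDR 0.0952) were called. Spearman's rho between place and ratio was -0.96 in WT and -0.93 in KO over the 7 segments, which share libraries. Adjacent segments ran against the order at Trbj1-3 and Trbj1-4 in WT and KO and at Trbj1-5 and Trbj1-6 in KO, where these had -2.95 and -2.55.

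The ends of the first cluster show the range. Trbj1-1 had 5.86, 6.81 and 3.57 CPM in WT RNA-seq and 44.0, 43.1 and 46.8 CPM in WT footprints. Trbj1-7 had 24.1, 25.0 and 19.5 CPM in RNA-seq and 0.628, 0.726 and 0.662 CPM in footprints, from 11, 13 and 7 reads. This row passed the low-count filter through its RNA alone. No library of either assay overlapped the other for these rows, in opposite directions. The 3 lowest ratios of the locus were those of Trbj1-7, Trbj1-6 and Trbj1-5. Trbj1-6 had 20.3, 19.6 and 16.9 CPM in WT RNA-seq against 2.17, 2.40 and 1.89 CPM in WT footprints.

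In the second cluster the span was narrower. Trbj2-1, Trbj2-2 and Trbj2-3 were called higher with log2 ratios of 1.40, 1.33 and 1.11 in WT. Trbj2-4 and the pseudogene Trbj2-6 were called lower at -0.47 and -0.54. Trbj2-5 at 0.21 and Trbj2-7 at 0.07 were not called (edgeR FDR 0.167 and 0.503). Spearman's rho with place was -0.82 in WT and -0.68 in KO over 7 segments. The range from highest to lowest was 1.95 log2 units in WT, against 8.10 in the first cluster, a difference that was not tested. The 8.10 is reached only with Trbj1-7, which passed the low-count filter through its RNA alone. The next lowest of the first cluster was Trbj1-6 at -2.82. Trbj2-7, the last of its cluster and nearest to Trbc2, had 34.4, 29.7 and 31.6 CPM in WT RNA-seq and 28.6, 27.6 and 26.1 CPM in WT footprints, unlike Trbj1-7, the last of the first cluster.

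**Figure D2:**
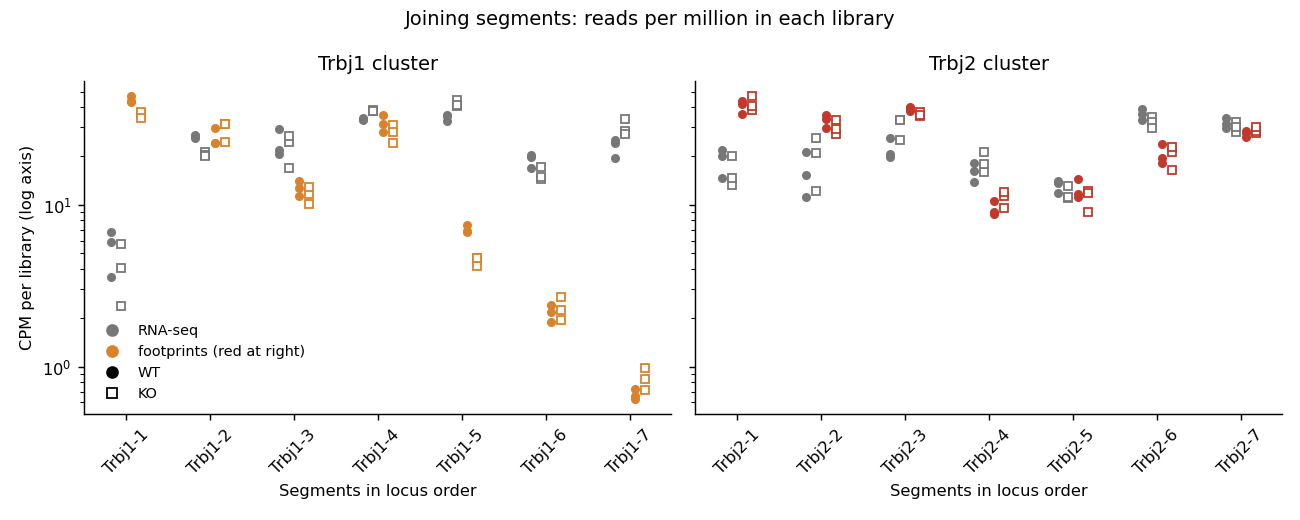
CPM (y axis, log scale) of each J segment in each of the 12 libraries, in locus order, with the first cluster at left and the second at right; grey is RNA-seq, colour is footprints, filled is WT and open is KO. Trbj1-1 footprints lie above its RNA in every library, and Trbj1-7 footprints, all under 1 CPM, lie below RNA values of 19.5 to 34.0 CPM.

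Constant genes lay closer to the average gene. Trbc1 had 352, 338 and 308 CPM in WT RNA-seq and a log2 ratio of 0.45 (SE 0.09, edgeR FDR 0.000207). Trbc2 had 683, 676 and 590 CPM and a log2 ratio of 0.73 (SE 0.08, edgeR FDR 1.06e-06). Their ratios in KO were 0.75 and 0.86. The alpha chain constant gene Trac had 1.64 in WT and the delta chain constant gene Trdc 1.37. Trbc1 made up 33.3% to 34.3% of the reads of both constant genes in WT RNA-seq and 27.6% to 31.0% in WT footprints. The 2 coding sequences are near-identical, so their split rests on reads over the parts that differ and is uncertain.

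Between genotypes, RNA of the locus moved little. Of 38 members tested in RNA-seq, 1 was called, Trbj1-2, which was lower in KO (2.63% of members, against 6.91% of all 13652 genes). Trbj1-2 had 25.7, 26.7 and 27.0 CPM in the libraries labelled WT and 21.1, 20.3 and 20.02 CPM in those labelled KO. The groups did not overlap, and the log2 fold change was -0.37 (SE 0.07, edgeR FDR 0.0282). With the replicate block the FDR was 0.529, and 0.806% of all genes were called. The call was also lost with DESeq2 (0.318), without the low-count filter (0.0580), in the joint fit of 12 libraries (0.0803) and without any 1 of the 6 libraries (0.0865 to 0.119). At an unadjusted edgeR p under 0.05 lay 12 members, against 5 with DESeq2 and 1 with the replicate block. The share of all genes under that cut was not counted, so this count and later ones at that cut have no background.

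Among the other RNA-seq values, 16 of 21 tested V rows had a positive difference in KO, with a median log2 fold change of 0.15 against 0.00 over all genes. None was called by edgeR or DESeq2, and 6 had an unadjusted edgeR p under 0.05. The same 16 to 5 split came out under RLE scaling, DESeq2, the replicate block and the joint fit of 12 libraries. These are refits of the same RNA-seq libraries, so the split could hardly change and is no further support. The V rows share libraries and are not replicates. Trbv24 had the largest positive value at 0.51 (SE 0.19, edgeR FDR 0.169) and Trbd2 the largest negative one at -0.90 (SE 0.46, edgeR FDR 0.293). KO libraries lay wholly above WT for Trbv1, Trbv13-1, Trbv13-2, Trbv17, Trbv20, Trbj1-4, Trbj1-5 and Trbj1-7, and wholly below for Trbj1-2 and Trbv31. These are 10 of 38, or 26.3%, where 30.9% of all genes did not overlap, 15.5% higher and 15.3% lower. The rows Trbv21, Trbv30, Trbd1, Trbv12-3 and Trbv22 had too few reads for this test. Trbc1 and Trbc2 each differed by log2 0.04 to 0.05 (edgeR FDR 0.779 and 0.775).

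**Figure D3:**
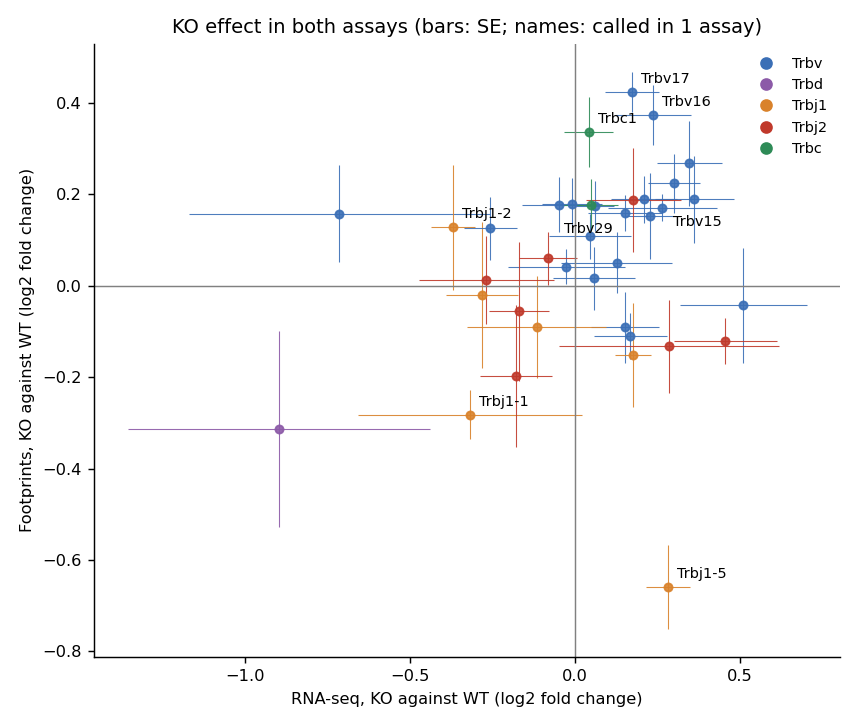
Log2 fold change of KO against WT in RNA-seq (x axis) and in footprints (y axis) for the members tested in both, with SE bars and 3 libraries a group; rows called in either assay are named. Most V rows lie at upper right near the origin, and Trbj1-5 stands apart with a positive RNA value of 0.28 and a footprint value of -0.66.

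In footprints, 7 of 40 tested members were called, or 17.5%, and 17.6% of all 13509 genes. Higher in KO were 5 of them (9.25% of all genes), Trbv15, Trbv16, Trbv17, Trbv29 and Trbc1, and lower were 2 (8.34% of all genes), Trbj1-1 and Trbj1-5. With the replicate block only Trbv17 was called, and 3.02% of all genes. Of the 23 tested V rows 4 rose and none fell, 18 values were positive, and the median log2 fold change was 0.16 against -0.01 over all genes. KO and WT did not overlap for 16 of 40 members, 11 higher and 5 lower, where 38.1% of all genes did not, 18.5% higher and 19.5% lower. Among the 5 lower was Trbv21, with 14, 17 and 9 reads in WT footprints and 8, 8 and 3 in KO. It passed the low-count filter through its WT libraries alone, so its lack of overlap was in part set by that filter.

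Trbv17 had the largest rise among V rows. It had 63.4, 66.2 and 62.0 CPM in WT footprints and 87.0, 83.0 and 88.4 CPM in KO. All KO libraries lay above all WT libraries, and the log2 fold change was 0.42 (SE 0.04, edgeR FDR 0.00235, with the replicate block 0.0371). Its RNA was 11.1, 10.6 and 11.4 CPM in WT and 12.4, 13.0 and 12.1 CPM in KO, a log2 fold change of 0.17 that was not called (edgeR FDR 0.450). The difference between the 2 assays was not called either (0.25, edgeR FDR 0.442).

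Trbv16 had 86.1, 96.3 and 87.9 CPM in WT footprints and 123, 109 and 120 CPM in KO. Its log2 fold change was 0.37 (SE 0.06, edgeR FDR 0.0124, with the block 0.0698), and the call was kept without each of the 6 libraries in turn. Smaller differences were called for Trbv15 at 0.17 (edgeR FDR 0.0120, with the block 0.339) and Trbv29 at 0.16 (edgeR FDR 0.0386, with the block 0.417). Trbv15 had 183 to 186 CPM in WT and 207 to 209 CPM in KO, so its libraries were tight within each genotype. DESeq2, the fit without the low-count filter and the joint fit of 12 libraries called neither (0.0942, 0.0806 and 0.208 for Trbv15, and 0.209, 0.133 and 0.119 for Trbv29). Trbv15 lost its call without WT replicate 2 or 3 or KO replicate 1 or 2 (FDR 0.0526 to 0.0629), and Trbv29 without any 1 of the 6 libraries (0.0545 to 0.141).

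Both constant genes had more footprints in every KO library than in any WT library. Trbc1 had 376, 399 and 342 CPM in WT and 468, 438 and 508 CPM in KO. The log2 fold change was 0.34 (SE 0.08, edgeR FDR 0.0289, with the block 0.115). The call was lost without WT replicate 1 or 3 or KO replicate 1 or 3 (FDR 0.0669 to 0.0699). Trbc2 had 835, 924 and 895 CPM in WT and 1060, 957 and 986 CPM in KO. Its log2 fold change of 0.18 (SE 0.06) was not called (edgeR FDR 0.0795). Trbc1 was 29.6% ± 1.77 of constant gene footprints in WT and 32.0% ± 1.78 in KO (SD, n = 3), and these groups overlapped.

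Of the J rows, Trbj1-1 had 44.0, 43.1 and 46.8 CPM in WT footprints and 36.9, 37.6 and 34.3 CPM in KO. The groups did not overlap, and its log2 fold change was -0.28 (SE 0.05, edgeR FDR 0.0166, with the block 0.210), a call lost without KO replicate 1 (0.0622), with DESeq2 (0.0801) and in the joint fit of 12 libraries (0.161). No row of the second J cluster was called in either assay by edgeR or DESeq2, and 1 of its 7 rows in each assay had an unadjusted edgeR p under 0.05. Trbj2-3 had the smallest FDR of that cluster in both, with log2 fold changes of 0.46 in RNA-seq (edgeR FDR 0.141) and -0.12 in footprints (edgeR FDR 0.147). D rows were not called in footprints by edgeR or DESeq2, and 0 had an unadjusted edgeR p under 0.05, at -0.05 for Trbd1 and -0.31 for Trbd2 (edgeR FDR 0.891 and 0.367).

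Trbj1-5 was the 1 member called for a footprint change that differed from its RNA change. For that difference, 8 of the 37 tested members had an unadjusted edgeR p under 0.05. In RNA-seq Trbj1-5 had 32.9, 36.0 and 35.4 CPM in WT and 44.5, 40.8 and 41.5 CPM in KO. In footprints it had 7.48, 6.81 and 6.90 CPM in WT and 4.17, 4.67 and 4.66 CPM in KO. KO lay wholly above WT in the first assay and wholly below it in the second. The RNA difference was 0.28 (SE 0.07, edgeR FDR 0.0600), short of the threshold, and the footprint fall was -0.66 (SE 0.09, edgeR FDR 0.00633, with the block 0.154, and 0.0691 with DESeq2). The interaction of genotype and assay was -0.94 (SE 0.12, edgeR FDR 0.00897), 1 call among 37 tested members, where 0.211% of all 11854 genes were called. With a block within each assay its FDR was 0.998 and 0.0169% of all genes were called, and with a block by mouse, which assumes that equal titles mark 1 mouse, 0.0854. The call was kept without 10 of the 12 libraries and lost without KO footprint replicate 1 (0.0523) or 2 (0.05002). KO footprints of this row rest on 45, 72 and 19 reads.

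**Figure D4:**
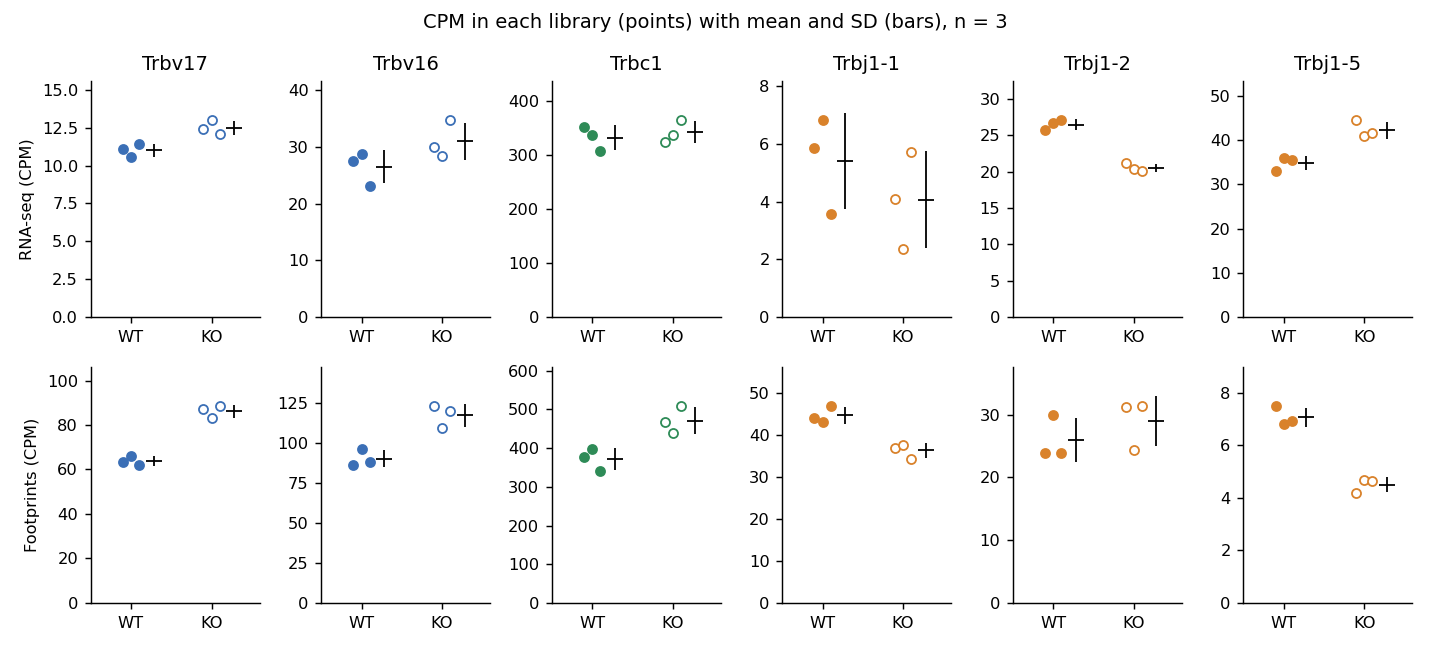
CPM (y axis, from 0) of 6 members called in a comparison of genotypes, with RNA-seq above and footprints below; points are libraries, filled for WT and open for KO, and the cross and bar beside them are mean and SD (n = 3). Trbj1-5 is higher in KO in RNA-seq and lower in footprints, and Trbv16, Trbv17 and Trbc1 are higher in KO in footprints.

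Invariant natural killer T (NKT) cells are innate-like T cells whose beta chains use few V segments, and 5 V rows were read for that reason: Trbv1, Trbv13-1, Trbv13-2, Trbv13-3 and Trbv29. In RNA-seq, Trbv1 had 30.6, 28.1 and 34.7 CPM in WT and 40.8, 45.1 and 35.2 CPM in KO, and Trbv13-2 had 42.1, 39.1 and 36.8 CPM against 45.2, 48.9 and 51.1 CPM. Neither was called, at log2 fold changes of 0.36 and 0.30 (edgeR FDR 0.131 and 0.0761). Trbv13-1, Trbv13-3 and Trbv29 had 0.23, -0.03 and 0.15, not called either. In footprints the log2 fold changes were 0.19, 0.15, 0.22, 0.04 and 0.16 in the order above, and only that of Trbv29 was called. DESeq2, the fit without the low-count filter and the joint fit did not keep that call. They called Trbv13-2 (FDR 0.0471, 0.04985 and 0.0491). The main edgeR fit (FDR 0.0586) and the block (0.264) did not call Trbv13-2. Trbv13-2 was the V row with most footprint reads in both genotypes, 10.01% ± 0.47 of V footprints in WT and 10.5% ± 0.47 in KO (SD, n = 3).

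Trbv31 and Trbv1, the V rows set apart by position, were not called between genotypes in either assay. Trbv31, the inverted V segment, had 19.95, 18.1 and 19.2 CPM in WT RNA-seq and 15.3, 17.0 and 15.8 CPM in KO. KO lay wholly below WT, but the log2 fold change of -0.26 was not called (SE 0.08, edgeR FDR 0.117). In footprints it had 114, 108 and 99.4 CPM in WT and 110, 117 and 126 CPM in KO, groups that overlapped. Trbv1, which lies apart at the far upstream end, had 178, 151 and 180.2 CPM in WT footprints and 183, 214 and 179.8 CPM in KO, which overlapped as well. Trbv19, among the 5 V rows with most reads, had 174 ± 13.5 CPM in WT footprints and 163 ± 13.1 CPM in KO (SD, n = 3; edgeR FDR 0.476).

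Some marker genes of other cell types and stages were called between genotypes, and the replicate block did not keep most of these calls. The 4 NKT markers summed to 145 to 152 CPM in WT and 119 to 122 CPM in KO RNA-seq, and to 137 to 142 and 111 to 115 CPM in footprints. Of them 2 of 3 tested fell in RNA-seq and 3 of 4 in footprints, of which the block kept 0 and 1 (Il2rb, edgeR FDR 0.0384). Among them was Zbtb16, the transcription factor of innate-like T cells, at -1.71 in RNA-seq (edgeR FDR 0.0445, with the block 0.152). Markers of early double-negative thymocytes, in which the beta locus is rearranged, summed to 79.9 to 95.6 and 124 to 147 CPM in RNA-seq and 168 to 182 and 201 to 217 CPM in footprints. Of these 3, Il2ra, a receptor subunit for interleukin 2, rose in RNA-seq (0.85, edgeR FDR 0.00676, with the block 0.0198) and in footprints (0.38, edgeR FDR 0.00160, with the block 0.0446). Cd44 and Kit of the same list were called in neither assay, at 0.06 and 0.37 in RNA-seq and 0.06 and 0.12 in footprints. Of the mature thymocyte markers, Klf2 and Ccr7 fell in RNA-seq, calls that the block did not keep. In RNA-seq, dendritic cell markers summed to 12.1 to 14.8 CPM in WT and 7.09 to 10.2 CPM in KO, erythroid markers to 75.8 to 90.6 and 46.5 to 58.2 CPM, and thymic epithelial markers to 22.6 to 25.3 and 17.7 to 20.02 CPM. In each of these 3 lists 1 gene fell in RNA-seq, Siglech, Hbb-bs and Krt5, and none of these calls was kept with the block. Erythroid sums overlapped in footprints, at 40.6 to 75.5 CPM in WT and 34.75 to 74.0 CPM in KO. The dendritic and thymic epithelial sums did not overlap there and were again lower in KO. In footprints Siglech fell too (-1.03, edgeR FDR 0.0126) and Cd79b of the B cell list rose (0.48, edgeR FDR 0.00413), and both calls were kept with the block (0.0444 and 0.0464). B cell and myeloid sums overlapped between genotypes in RNA-seq. What part these cells had in the differences of beta locus rows was not tested.

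Genes that work with the beta chain were read from the same fits. Of 9 genes of the receptor complex and its coreceptors none was called in RNA-seq by edgeR or DESeq2, and 3 had an unadjusted edgeR p under 0.05. In footprints Cd4, the coreceptor for MHC class II, rose by 0.57 (edgeR FDR 0.00335, with the block 0.0121) and Ptcra fell by 0.37 (edgeR FDR 0.0293, with the block 0.155). The list's median log2 fold change in footprints was 0.10, against -0.01 over all genes. Of 13 genes of V(D)J recombination, Xrcc4, a ligase partner in end joining, rose in RNA-seq by 0.38 (edgeR FDR 0.0189, with the block 0.434) and none of the other 12 was called. In footprints Rag1, a subunit of the recombinase that cuts the segments, fell by 0.30 (edgeR FDR 0.00868, with the block 0.116), and Dclre1c, the hairpin-opening nuclease, rose by 0.25 (edgeR FDR 0.00546, with the block 0.189). Trac and Trdc, the 2 other receptor constant genes matched by symbol, were called in neither assay by edgeR or DESeq2, and neither had an unadjusted edgeR p under 0.05.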

How the data were processed

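Per the labels' protocols, both assays used the Illumina TruSeq Ribo Profile (Mammalian) kit. The deposited values are whole-number counts per Ensembl gene, 1 table per assay, which the authors named adjusted without saying how. The submitters' processing notes name FastQC, Bowtie2 2.5.1, STAR 2.7.10a, HTSeq 2.0.3 and DESeq2 1.40.2. Which build, annotation and strandedness were used is not given in the sources used here, so overlapping and antisense genes are uncertain. The 5 rows of uncounted reads stayed out of totals. A further 12 per-library columns in the authors' comparison tables were not used. RefSeq (GRCm38.p6) gave segment order and pseudogene status for 43 of 43 members; sequences of the segments were not used here.

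All genes were fitted with edgeR 4.0.16 in R 4.3.3 (TMM, filterByExpr with minimum count 10, quasi-likelihood test, Benjamini-Hochberg adjustment; SE is the log2 fold change over the root of F), and called at FDR under 0.05. Translation was the genotype by assay interaction over 12 libraries. On simulated counts the fits gave the right sign for each changed gene tested. The translation fit called the smallest share of them, below the pass mark first set for this check, which was then lowered, so changes in translation are the likeliest to be missed. Pairs of replicates differed by more than sampling noise (chi-square per degree of freedom 3.41 to 12.9). Alternatives were RLE scaling, DESeq2 1.42.0, no filter, FDR under 0.1, a replicate block, a joint fit, stricter read minimums and leaving out each library.

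Named members were all D and C rows, the 5 V and 5 J rows with most reads, each row called between genotypes, extremes of change and of WT ratio, Trbv1 and Trbv31, and V rows of NKT cells; other rows were named after their values were seen. Members and lists were chosen with earlier results of these data known. The values of some marker genes are not reported here.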

Additional observations from a re-analysis of the deposited data

Results flagged for a closer look

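The KO effect on Trbj1-5 differed between the assays by a test of the difference itself: footprints changed by -0.94 log2 units (SE 0.12, edgeR FDR 0.00897) relative to RNA. The call was lost with a replicate block, at an FDR of 0.998 within each assay and 0.0854 by mouse.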

How the results depend on the processing

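Members called between genotypes in RNA-seq numbered 0 with DESeq2, without the filter and with the replicate block, 3 at an FDR under 0.1, 4 in the joint fit of 12 libraries (Trbv13-2, Trbj1-5, Trbj1-7 and Trbj2-3, all higher, without Trbj1-2) and 0 to 0 when each library was left out, against 1. Among all 13652 genes, 532 were called with DESeq2 and 110 with the block, against 943. At an FDR under 0.1 all genes called numbered 1735, and in the joint fit 1563. Without the filter 998 of 28504 genes were called, and with a library left out 215 to 321 genes. In footprints, members called numbered 4 with DESeq2, 14 at an FDR under 0.1, 1 with the block and 3 to 5 with a library left out, against 7. Among all 13509 genes, 1248 were called with DESeq2, 3523 at an FDR under 0.1 and 408 with the block, against 2375. With a library left out 1037 to 1554 genes were called. For translation, members called numbered 0 with either block and 0 to 1 with a library left out, against 1. Among all 11854 genes, 2 were called with the block within each assay and 17 with the block by mouse, against 25. With a library left out 5 to 23 genes were called. Members called for footprints against RNA numbered 36 to 38 in WT and 37 to 37 in KO with a library left out, against 37. All genes called then numbered 11906 to 12756 in WT, against 12267, and 11213 to 11865 in KO, against 11532. Over 69 named results, 905 of 960 alternative values stayed on the same side of the threshold, 44 lost a call, 11 gained one and 0 calls reversed. Of the 905, 38 that were not called changed sign. The 9 results called between genotypes kept their sign in all 114 alternatives.

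With TMM-scaled totals, V rows in RNA-seq summed to 380 (WT) and 425 (KO) CPM, against 390 and 414 RPM. With at least 20 reads in each assay, the median V ratio in KO was 2.64 against 2.69, and D rows gave no value. These class medians use plain log2 ratios with a prior count, not the fitted ratios of single rows. With a library left out they ran from 3.25 to 3.51 for D rows and from -0.71 to -0.46 for Trbj1 rows in WT, and from 2.67 to 2.72 for V rows and -0.85 to -0.54 for Trbj1 rows in KO. Low RNA reads limit the ratios of Trbv30 and Trbd1, and in KO that of Trbd2.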
